A study of Mus musculus with 140 samples.

Results

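The genes followed here include Pdha1, Pdhb and Dlat of the pyruvate dehydrogenase complex. The others are Cs, Idh3a, Ogdh, Sucla2, Fh1 and Mdh2 of the tricarboxylic acid (TCA) cycle. All were chosen by symbol and not by a cut on a measured value, but with earlier results of these data known. They are 9 of the 10489 genes present in all 3 count tables of the series, and all 9 were counted in every one of the 140 liver libraries. The pyruvate dehydrogenase complex, in the mitochondrial matrix, turns pyruvate from glycolysis into acetyl-CoA, the fuel of the cycle. The cycle oxidizes the acetyl group and passes the electrons to the respiratory chain. In the liver the same intermediates also leave for gluconeogenesis, the urea cycle and fatty acid synthesis, and the use of pyruvate is switched between the fed and the fasted state by kinases that inactivate the complex.

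The libraries came from livers of 3-month-old male C57BL/6 mice of 3 genotypes. These were wild type (WT, 48 libraries), Per1,2-/- (labelled PerDKO, 46 libraries), which lack the period genes Per1 and Per2 of the negative limb of the circadian clock but not Per3, and Bmal1-/- (labelled Bmal1KO here, 46 libraries), which lack the Arntl gene product BMAL1 of the positive limb. Both deletions are in the whole animal, so that every tissue carries them. Mice were taken every 4 hours at 12 circadian times (CT) from CT0 to CT44 in constant darkness, with food always present. One label of the Bmal1-/- samples states a light-dark cycle during the experiment, while another label and the study place these mice in constant dark. Each time point had 4 libraries lettered A to D, except that Per1,2-/- had 3 at CT8 and at CT20, and Bmal1-/- had 3 at CT16 and at CT20. The labels do not tie letters to animals, so p-values measure the spread between these libraries, part of which may be technical.

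RNA was measured by MARS-seq on bulk liver. Its barcodes are added at 3′ ends, and a count stands for 1 barcoded molecule whatever the length of the transcript. Libraries held 1678097 to 4364594 counts in WT, 1442278 to 5643470 in Per1,2-/- and 1924755 to 5325256 in Bmal1-/-. Hepatocyte markers were all counted in every library (5 of 5), as a liver label requires. Their summed level was 54130 to 84810 CPM in WT, 55800 to 95680 in Per1,2-/- and 32010 to 51910 in Bmal1-/-. The Bmal1-/- range thus lay below both others. For marker and clock genes CPM are counts scaled to the library total, without TMM factors. For the followed genes CPM are counts scaled to a common library size by TMM, so the scales are not the same. The clock output gene Dbp had a median of 56.4 CPM in WT, 157 in Per1,2-/- and 13.6 in Bmal1-/-. Tags of the targeted genes were still counted in the knockouts, with medians of 9.58 CPM for Per1 and 19.35 for Per2 in Per1,2-/- (17.2 and 12.4 in WT) and of 8.465 for Arntl in Bmal1-/- (11.3 in WT). Where the deletions lie relative to the 3′ tags was not examined, so these values do not check the labels. A total of 12 libraries correlated less well with the others of their genotype (2 of WT, 5 of Per1,2-/- and 5 of Bmal1-/-), and results are also given without them where they move. Each genotype is a table of its own, so genotype and table cannot be told apart. In these bulk samples fewer cells of a type and less RNA per cell cannot be told apart either.

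In GRCm38 coordinates, with GENCODE gene models, Pdha1 is at chrX:160122209-160138413, Pdhb at chr14:8165996-8173025, Dlat at chr9:50634633-50659780, Cs at chr10:128337734-128362479, Idh3a at chr9:54586334-54604661, Ogdh at chr11:6291633-6356642, Sucla2 at chr14:73525319-73596142, Fh1 at chr1:175600374-175625635 and Mdh2 at chr5:135778480-135790398. Map3k15, on the opposite strand, covers the 3′ end of Pdha1 and is itself counted in the WT table, so that Pdha1 values are uncertain to the extent that strand was not used in the counting.

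Promoters, taken as 250 bases before to 50 bases after a RefSeq gene start (GRCm38.p6), matched 8 of the 9 genes. They were searched on both strands for the E-box CACGTG bound by BMAL1 with its partners, the D-box (TTATGTAA or TTATGCAA), the ROR element ANTNGGTCA, the estrogen-related receptor element TNAAGGTCA, the nuclear respiratory factor 1 (NRF1) site GCGCATGCG and the FOXO site TGTTTAC. Of 32851 mouse promoters 7.15% hold that E-box, 1.66% the D-box, 2.24% the ROR element, 1.28% the estrogen-related receptor element, 1.75% the NRF1 site and 3.65% the FOXO site. Among the 8 genes only Ogdh held any of these letters. One of its several start sites is shown because it holds the E-box 141 bases before the start and the NRF1 site 15 bases before it. The promoters of Pdhb, Fh1, Cs and Mdh2 are shown because these genes carry the rhythms and level differences described below. After reading them, the CCAAT box (CCAAT, or ATTGG when on the other strand) and the palindrome CTCGCGAG were also searched, which 37.4% and 0.919% of promoters hold. In the following lines, 5′ to 3′ on the strand of the gene, capitals mark all these matches.
Pdhb, chr14:8172943-8173242, minus strand: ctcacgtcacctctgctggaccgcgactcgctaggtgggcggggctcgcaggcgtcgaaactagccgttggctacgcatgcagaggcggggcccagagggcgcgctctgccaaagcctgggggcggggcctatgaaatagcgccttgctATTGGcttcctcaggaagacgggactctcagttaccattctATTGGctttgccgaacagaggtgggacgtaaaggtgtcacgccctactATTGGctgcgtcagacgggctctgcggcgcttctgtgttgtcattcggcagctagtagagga
Fh1, chr1:175625586-175625885, minus strand: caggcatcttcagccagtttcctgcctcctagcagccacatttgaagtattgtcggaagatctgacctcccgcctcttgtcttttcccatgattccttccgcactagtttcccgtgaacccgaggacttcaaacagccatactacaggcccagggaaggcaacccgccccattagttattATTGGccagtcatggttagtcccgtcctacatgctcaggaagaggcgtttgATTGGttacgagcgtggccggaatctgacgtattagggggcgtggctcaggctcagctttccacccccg
Cs, chr10:128337477-128337776, plus strand: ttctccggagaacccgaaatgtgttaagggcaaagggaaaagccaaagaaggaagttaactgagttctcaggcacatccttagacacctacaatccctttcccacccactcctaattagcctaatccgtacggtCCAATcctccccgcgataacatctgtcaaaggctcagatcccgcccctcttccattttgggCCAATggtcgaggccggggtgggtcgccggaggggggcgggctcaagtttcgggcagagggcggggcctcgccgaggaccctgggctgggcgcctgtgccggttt
Mdh2, chr5:135778399-135778698, plus strand: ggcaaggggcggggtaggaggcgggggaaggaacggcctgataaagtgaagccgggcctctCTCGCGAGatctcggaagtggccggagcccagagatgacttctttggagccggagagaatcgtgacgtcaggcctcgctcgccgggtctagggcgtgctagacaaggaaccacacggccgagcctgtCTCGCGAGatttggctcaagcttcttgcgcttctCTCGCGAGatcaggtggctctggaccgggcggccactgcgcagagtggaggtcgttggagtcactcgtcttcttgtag
Ogdh, chr11:6292308-6292607, plus strand: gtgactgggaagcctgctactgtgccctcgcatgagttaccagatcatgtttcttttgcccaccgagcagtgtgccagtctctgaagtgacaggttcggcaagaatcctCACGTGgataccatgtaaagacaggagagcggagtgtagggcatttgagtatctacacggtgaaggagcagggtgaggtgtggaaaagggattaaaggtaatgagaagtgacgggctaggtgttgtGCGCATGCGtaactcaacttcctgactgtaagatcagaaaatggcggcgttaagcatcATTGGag

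The Pdhb promoter held 3 CCAAT boxes, at 101, 60 and 12 bases before the start, which 3.37% of promoters match or exceed in number. Fh1 and Cs held 2 each. Ogdh, for which JTK_CYCLE called no rhythm, held 1 at the start site shown and 2 at other start sites. The Mdh2 promoter held CTCGCGAG 3 times, a number reached by 2 of the 32851 promoters, Mdh2 among them. CCAAT and CTCGCGAG were chosen after these promoters had been read, so their shares carry no test. These letters are descriptions of the windows and were not tested for function.

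In WT livers most of the 9 transcripts varied with the time of day. A 24-hour rhythm was called for 6 of the 9 genes by JTK_CYCLE (q, the Benjamini-Hochberg value over 9258 genes, under 0.2). Of all genes tested 48.6% were called, and the count of the 9 is to be read against that share. Fold here means the highest over the lowest point of the fitted cosine, and its median was 1.315 in the 9 genes and 1.253 over all genes. Peaks of 5 of the 6 rhythms fell in the subjective night, from CT13.8 to CT19.7, and that of Cs fell in the early subjective day.

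**Figure D1:**
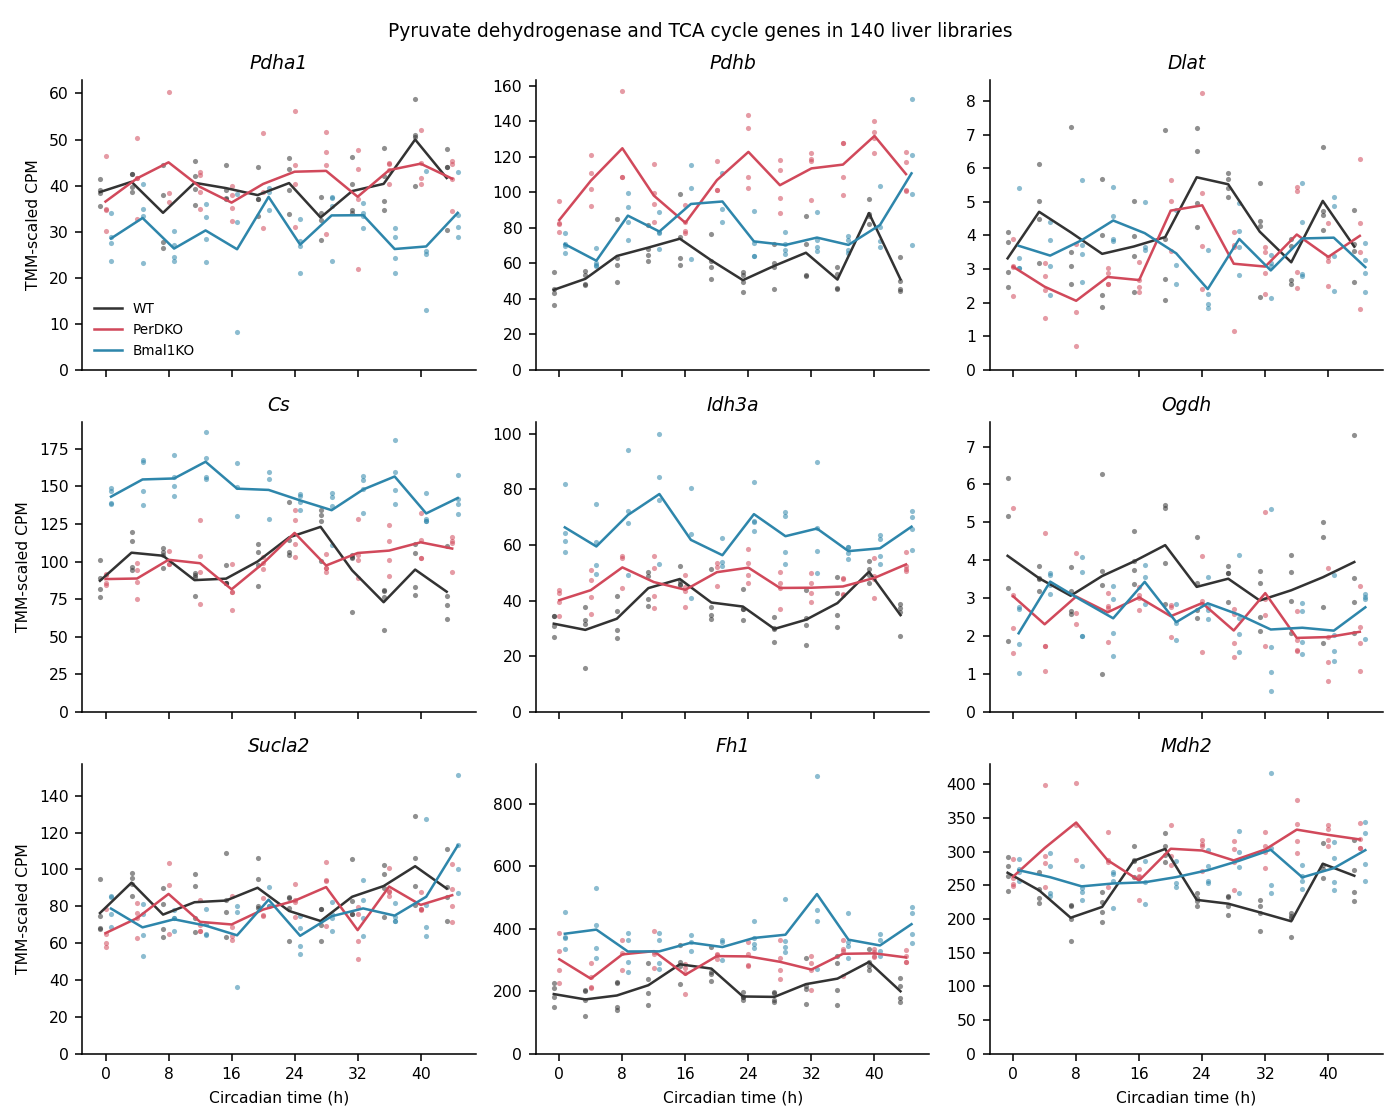
Level of the 9 genes (TMM-scaled CPM, linear axes from 0) against circadian time in hours for WT, Per1,2-/- (PerDKO) and Bmal1-/- (Bmal1KO). Points are the 140 libraries, set side by side within a time point, and lines join the means of 3 or 4 libraries. Pdhb of PerDKO lies above WT at all 12 time points, as do Cs, Idh3a and Fh1 of Bmal1KO.

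Pyruvate dehydrogenase begins with a decarboxylase built from the Pdha1 and Pdhb subunits, and Pdhb had the clearer rhythm. Its normalized counts in WT were 110.3, 139, 166 and 131 at CT0 (137 ± 23.1, SD, n = 4) and 267, 247, 264 and 286 at CT40 (266 ± 15.9, n = 4). The time points did not overlap, and every library at CT40 was above every one at CT0. These were the highest and lowest of its 12 means, so their separation carries no test. Dlat and Sucla2 in WT also had no overlap between their highest and lowest time points. No change over time points was called for them by edgeR (adjusted p = 0.237 and 0.205). The separation of time points printed below likewise carries no test. The first day had its highest mean at CT16 (225 ± 53.6, n = 4), lower than on the second day. Over 48 libraries the 24-hour fold was 1.45 with a peak at CT13.8 (q = 0.00953). Means of CT36 (155 ± 18.3) and CT44 (153 ± 26.2) stood on either side of the CT40 peak, so that the second day rose and fell within 8 hours. Letters A and C at CT44 are among the libraries that stood apart.

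Pdha1, which carries the phosphorylation sites by which the complex is switched off, varied less. Its levels went from the lowest mean at CT28 (84.6, 115, 103 and 97.0 normalized counts) to the highest at CT40 (154, 119.8, 155 and 174), without overlap. By edgeR no change of Pdha1 over the WT time points was called (adjusted p = 0.489). Its fold was 1.18 with a peak at CT16.7 (q = 0.134), and the call was lost with a linear trend removed (q = 0.468), without time points CT8 (q = 0.251), CT28 (q = 0.843) or CT40 (q = 1) and without the libraries of letters B, C or D (q of 0.211 to 0.477). Dlat encodes the acetyltransferase core of the complex and was counted at 5 to 28 molecules per WT library. Its amplitude was 13.4 ± 6.90% of the mean (SE, n = 48), and it was not called (q = 0.495).

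Idh3a, the catalytic subunit of NAD-dependent isocitrate dehydrogenase, had one of the largest rhythms of the 9 genes. Its normalized counts were 115, 48.4, 95.7 and 99.4 at CT4 and 102, 77.2, 91.1 and 89.7 at CT28. They were 139.5, 141, 159 and 144 at CT16 and 156, 139.8, 150.0 and 161 at CT40. All 8 libraries of CT16 and CT40 were thus above all 8 of CT4 and CT28, on both days. The fold was 1.57 with a peak at CT15.5 (q = 4.49e-05).

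Fh1 encodes fumarase, which hydrates fumarate to malate and also takes up the fumarate released by the urea cycle enzymes. Its normalized counts were 526, 366, 611 and 615 at CT4, 895, 679, 1059.8 and 864 at CT16, 496, 592, 522 and 588 at CT28 and 812, 844, 891 and 991 at CT40. As with Idh3a, the 8 libraries of CT16 and CT40 were above the 8 of CT4 and CT28. The fold was 1.58 with a peak at CT15.7 (q = 0.000272). Over the 48 WT libraries the genes with the most similar profile among 9220 included Arg1 (r = 0.825) and Pxmp2 (r = 0.825), and of the other 8 followed genes the closest were Idh3a (r = 0.62) and Pdhb (r = 0.55). Arg1 encodes arginase, the last enzyme of the urea cycle. These correlations share libraries and time of day and carry no test.

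Mdh2, the mitochondrial malate dehydrogenase that closes the cycle, had the smallest q of the 9 genes and the latest peak among those called. Its normalized counts were 613, 513, 661 and 665 at CT8 and 869.7, 996, 939 and 890.5 at CT20. The second day ran from 611, 623, 527 and 639 at CT36 to 951, 786, 833 and 830.2 at CT40, again without overlap. The fold was 1.41 with a peak at CT19.7 (q = 1.63e-06).

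Cs, citrate synthase, which joins acetyl-CoA to oxaloacetate at the entry of the cycle, peaked in the day, not the night. Its normalized counts were 391, 388, 305 and 401 at CT28 and 232, 166, 247 and 246 at CT36, so that the highest and lowest time points were 8 hours apart. The fold was 1.31 with a peak at CT3.00 (q = 0.0237). Its profile in WT correlated negatively with that of Fh1 (r = -0.37, n = 48, no test). On means per time point the calls of Cs (q = 0.410) and Pdhb (q = 0.240) were lost. Of the remaining genes Sucla2, the ADP-forming succinyl-CoA ligase subunit, had an amplitude of 7.68 ± 3.39% (q = 0.463). Ogdh, the first enzyme of the 2-oxoglutarate dehydrogenase complex, had 13.3 ± 6.82% (q = 0.847) at 3 to 28 counts per library. Neither was called by JTK_CYCLE, while an edgeR test of the same cosine called both (adjusted p = 0.151 and 0.184, under 0.2). That edgeR test called 5513 of all 9258 genes.

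Without assuming a period, edgeR's quasi-likelihood test found that 5 of the 9 genes changed over the WT time points at an adjusted p under 0.05, against 35.4% of 8473 genes. These were Mdh2 (adjusted p = 1.22e-07), Pdhb (6.17e-07), Cs (5.81e-06), Idh3a (0.000111) and Fh1 (0.000507). No 16-hour rhythm was called among the 9 genes in WT (background 0.054%), none reached an unadjusted p under 0.05 and none was called by harmonic regression, edgeR or DESeq2. No gene of the 9 had a linear trend from CT0 to CT44 in WT by edgeR (background 1.96%), none at an unadjusted p under 0.05 and none by DESeq2.

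**Figure D2:**
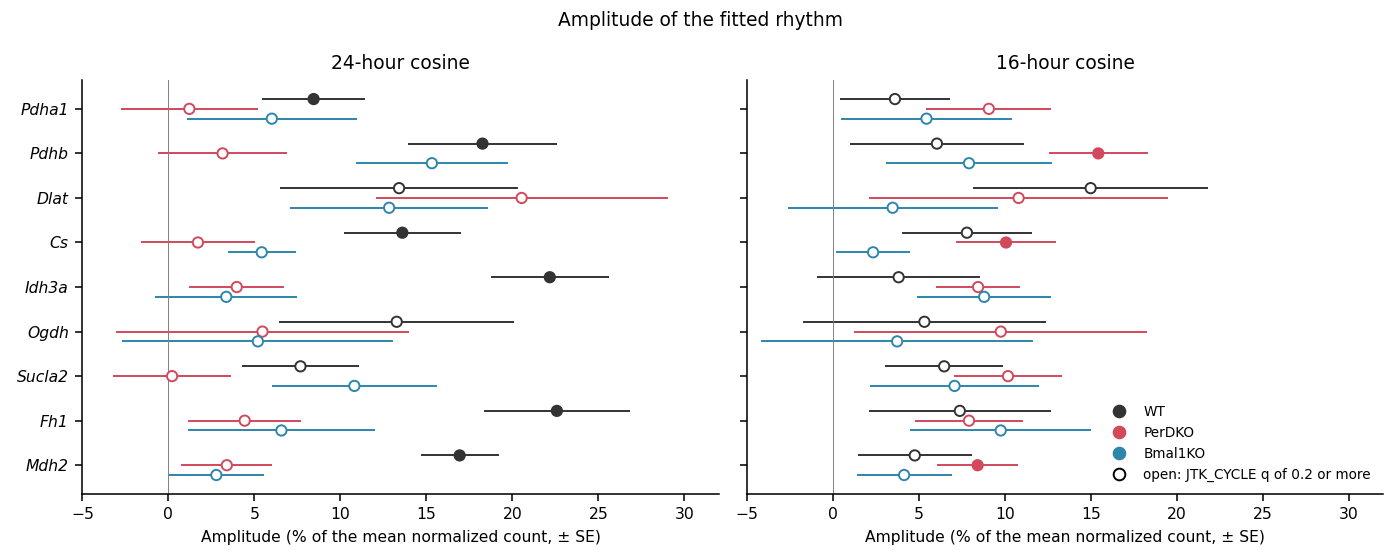
Amplitude of the fitted 24-hour cosine (left) and 16-hour cosine (right) as a percentage of the gene's mean normalized count, with SE bars, for WT (n = 48), PerDKO (n = 46) and Bmal1KO (n = 46). Filled points passed JTK_CYCLE at q under 0.2. Filled points at 24 hours are WT genes alone, at 8.45% to 22.6%, and those at 16 hours are Pdhb, Cs and Mdh2 of PerDKO, at 8.42% to 15.4%.

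In Per1,2-/- livers the 24-hour rhythm of the pathway was not detected. None of the 9 genes was called at 24 hours (background 0.0864%), none had an unadjusted p under 0.05, and harmonic regression, edgeR and DESeq2 also called 0. The median 24-hour fold was 1.07 in the 9 genes and 1.133 over all genes. Idh3a had an amplitude of 3.98 ± 2.77% of the mean (SE, n = 46), against 22.2 ± 3.43% in WT, Mdh2 had 3.40 ± 2.66% against 16.9 ± 2.28%, and Fh1 had 4.44 ± 3.29% against 22.6 ± 4.23%. Dlat, called in neither, had the larger fitted amplitude in Per1,2-/-, 20.5 ± 8.49% against 13.4 ± 6.90%. The difference itself was tested in 1 edgeR fit over the 3 genotypes, and the 24-hour terms differed from WT in 5 of the 9 genes (background 28.2%). The adjusted p was 8.39e-06 for Mdh2, 0.00276 for Idh3a, 0.0139 for Cs, 0.0207 for Pdhb and 0.0290 for Fh1. When the libraries of 1 letter were left out, Mdh2 and Idh3a stayed past the threshold each time. Pdhb did not without A, B or C (adjusted p of 0.0594 to 0.140), Cs without A or B (0.0929 and 0.0510) and Fh1 without A, C or D (0.0759 to 0.136).

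Bmal1-/- livers gave a similar count. None of the 9 genes was called at 24 hours (background 0.0116% of 8586 genes), Pdhb alone had an unadjusted p under 0.05 (p = 0.0386 by the exact JTK_CYCLE test), and the other methods called 0. The 24-hour terms differed from the same WT libraries in 5 genes (background 21.6%), with adjusted p = 0.000161 for Idh3a, 0.000245 for Fh1, 0.000824 for Mdh2, 0.00604 for Cs and 0.0456 for Pdhb. The last of these was not past the threshold without the 12 libraries that stood apart (adjusted p = 0.285) or without letters A, B or D (0.0997 to 0.222), nor was Cs without letter A (0.0902). Idh3a had an amplitude of 3.37 ± 4.13% and Mdh2 of 2.79 ± 2.77% in Bmal1-/-. Pdhb had a fitted amplitude of 15.3 ± 4.44% there, with no call (q = 1, and q = 1 without the libraries that stood apart).

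At 16 hours some of the genes were called rhythmic in Per1,2-/- livers. JTK_CYCLE called 3 of the 9 at 16 hours, Pdhb, Cs and Mdh2, against a background of 4.73%, and 6 had an unadjusted p under 0.05. Pdhb had 341, 281, 296 and 295 normalized counts at CT0 and 391, 561 and 387 at CT8. It fell to 300.1, 334, 278 and 278 at CT16, rose to 514, 489, 388 and 368 at CT24 and reached 441, 505, 470.1 and 486 at CT40. All libraries of CT8, CT24 and CT40 were above all those of CT0 and CT16. Letters B (561) and C (387) at CT8 are among the libraries that stood apart. At CT32, where a 16-hour cosine has its trough, the counts were 438, 421, 429 and 338 and overlapped those of CT24. The 16-hour fold of Pdhb was 1.36 with a first peak at 7.53 hours (q = 0.0289).

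Cs had a 16-hour fold of 1.22 with a peak at 8.39 hours (q = 0.120) and Mdh2 of 1.18 at 7.08 hours (q = 0.152). Sucla2 (q = 0.219), Fh1 (q = 0.268) and Idh3a (q = 0.371) were not called, with fitted peaks of 8.28, 9.17 and 8.64 hours. The Per1,2-/- profile of Pdhb was most like those of Cyc1 (r = 0.705), Atp5a1 (r = 0.697) and Glrx5 (r = 0.693), the first 2 of which encode subunits of respiratory complex III and of the ATP synthase. Of the other 8 followed genes the closest were Cs (r = 0.66) and Pdha1 (r = 0.64), over 46 libraries and with no test.

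These calls depend on how the test was set. None of the 3 was called when times of equal height in the JTK_CYCLE reference were kept tied (q = 0.357 for Pdhb, 0.464 for Cs and 0.558 for Mdh2), an alternative added after the data were seen, or on means per time point. Without letter B none was called either (Pdhb, q = 0.264), and without A, C or D Pdhb alone was (q of 0.0434 to 0.194). Mdh2 was not called without the libraries that stood apart (q = 0.328). With a linear trend removed Pdhb alone was called (q = 0.0466). In the test of 16-hour terms between Per1,2-/- and WT, 0 of the 9 genes were called by edgeR (background 0.142%) and 0 by DESeq2, with 1 unadjusted p under 0.05, that of Mdh2 (adjusted p = 0.210).

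A straight rise ran through the same libraries. The slope, as the log2 change from CT0 to CT44, was 0.38 ± 0.104 (SE) for Cs (adjusted p = 0.00318), 0.43 ± 0.136 for Pdhb (0.0132) and 0.34 ± 0.129 for Sucla2 (0.0417), or 3 of the 9 genes against 13% of all genes rising. The Sucla2 slope was not called without letters A, C or D (adjusted p of 0.0946 to 0.184), nor that of Pdhb without D (0.0559), while that of Mdh2 was called without the libraries that stood apart (0.34, 0.000191). The median slope was 0.21 in the 9 genes and -0.023 over all genes. Cs, for example, had 330.1, 311, 304 and 325 normalized counts at CT0 and 419, 335, 404 and 409 at CT44, with every library of CT44 above every one of CT0. Over these 12 times a slope and a 16-hour cosine are not independent of each other. Changes over the Per1,2-/- time points, with no period assumed, were called for 2 of the 9 genes (background 21.2%), Pdhb (adjusted p = 0.00386) and Cs (0.0113), and for 4 without the libraries that stood apart, Mdh2 (0.00598) and Sucla2 (0.0490) being added. Pdhb was not called without letter B (0.127), nor Cs without A (0.188) or C (0.0902).

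**Figure D3:**
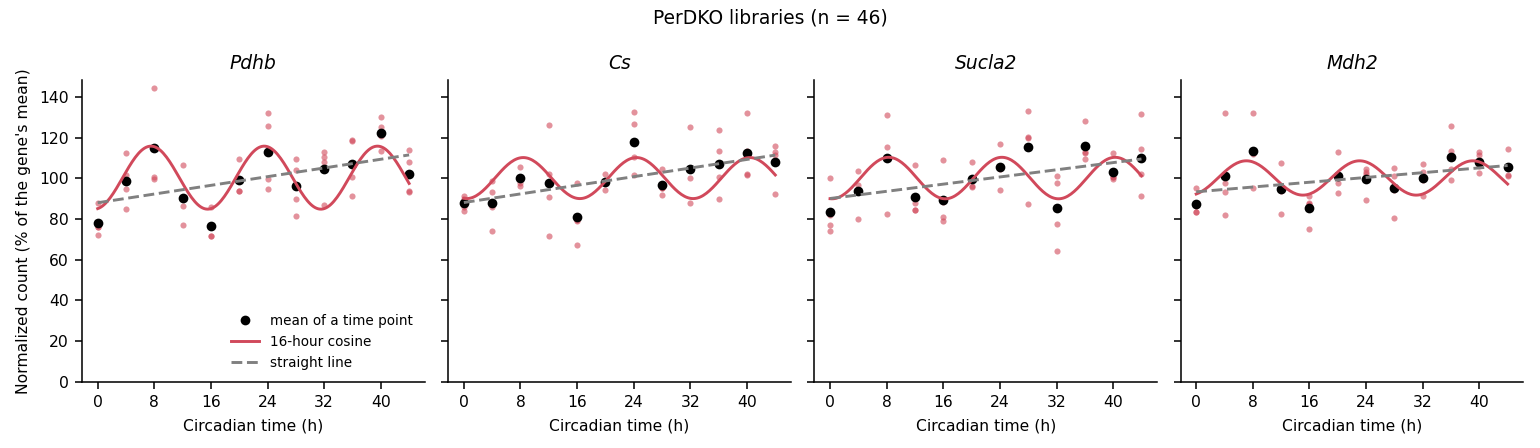
Normalized counts of Pdhb, Cs, Sucla2 and Mdh2 in Per1,2-/- livers as a percentage of the gene's mean, against circadian time in hours. Small points are the 46 libraries, black points the means of 3 or 4 libraries, the red curve the fitted 16-hour cosine and the dashed line a straight line. Pdhb means at CT8, CT24 and CT40 lie above those at CT0 and CT16, and the mean at CT32 does not fall to the trough of the curve.

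In Bmal1-/- livers no 16-hour rhythm (background 0.0116%) and no 12-hour rhythm (background 0.14%) was called among the 9 genes. At 16 hours none had an unadjusted p under 0.05 and no other method made a call. At 12 hours the unadjusted p by the exact JTK_CYCLE test was 0.00575 for Pdhb (q = 0.234) and 0.0218 for Sucla2 (q = 0.314), and DESeq2 called Pdhb (adjusted p = 0.163, under 0.2). No trend was called (background 0.0236%), with 3 unadjusted p under 0.05 and 0 calls by DESeq2. Changes over time points were called for Pdhb (adjusted p = 0.00348) and Sucla2 (0.0250), against a background of 1.32%.

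Both Bmal1-/- changes had their highest mean at CT44. Pdhb had 345, 419, 248 and 535 normalized counts there and 207, 206, 241 and 211 at CT4. Sucla2 had 349.8, 392, 307 and 532 at CT44 and 263, 241, 189 and 206 at CT24. In both genes letter D was the highest and letter C the lowest at CT44, and letters B and D at this time are among the libraries that stood apart. Without those libraries Sucla2 was not called (adjusted p = 0.496) while Pdhb was (0.0130). Without letters A, B or D neither gene was called (Pdhb 0.0756, 0.141 and 0.338, Sucla2 0.0798, 0.184 and 0.501).

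The average level over the 12 time points differed between genotypes for most of the 9 genes. In Per1,2-/- 7 of the 9 genes differed from WT by edgeR, 4 higher (background 36.8%) and 3 lower (33.9%), so that most genes of the liver were called as well. In Bmal1-/- all 9 differed, 5 higher (background 37.5%) and 4 lower (39.2%). Both comparisons use the same WT libraries. The median log2 difference of the 9 genes was 0.074 in Per1,2-/- and 0.165 in Bmal1-/-, beside 0.015 and -0.011 over all genes. The summed hepatocyte markers were lower in Bmal1-/- (above), but not each of them. Alb had a median of 32750 CPM in WT and 16500 in Bmal1-/-, Apoa1 15350 and 9179, Ttr 16760 and 15140, Tat 1179 and 1133, and Cps1 682 and 1194. Macrophage markers (4 of 4 listed) summed to 140.4 to 522 CPM in WT, 152 to 592 in Per1,2-/- and 38.0 to 143 in Bmal1-/-. Stellate markers (3 of 4 listed in WT, without Lrat, and 4 of 4 in the knockouts) summed to 31.6 to 146, 55.7 to 338 and 31.6 to 111 CPM in the same order, and Dcn had medians of 31.1, 89.7 and 60.4. The other stellate markers listed in WT were lower in Bmal1-/-. Reln had medians of 12.58, 12.17 and 8.35 in that order, and Col1a1 of 11.53, 13.06 and 1.166. Cholangiocyte markers (4 of 4 listed) summed to 37.6 to 128, 66.0 to 218 and 37.7 to 470.0 CPM, mostly Spp1 (medians 46.7, 97.8 and 97.8), while Epcam had medians of 1.03, 1.795 and 0.32. Endothelial markers (4 of 4 listed) summed to 43.0 to 97.8, 36.4 to 87.3 and 48.4 to 94.7 CPM. Hemoglobin genes were listed in none of the tables. The part of cell composition in these differences was not tested.

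**Figure D4:**
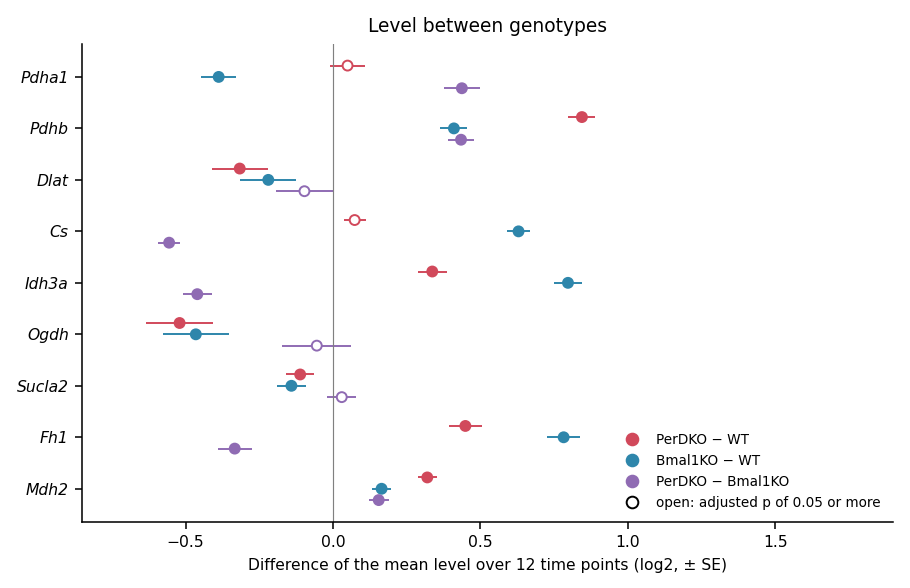
Difference of the mean level over 12 time points between genotypes (log2, with SE bars) for the 9 genes, from edgeR on 140 libraries. Filled points have an adjusted p under 0.05. Pdhb stands at 0.84 for PerDKO against WT, Idh3a, Fh1 and Cs at 0.80, 0.78 and 0.63 for Bmal1KO against WT, and Ogdh and Dlat lie below 0 in both.

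Within the pyruvate dehydrogenase complex the subunits moved apart. Pdhb had 36.5 to 98.8 CPM in WT, with a median of 57.9. It had 77.3 to 157 CPM in Per1,2-/-, median 108, and 58.6 to 152 in Bmal1-/-, median 73.0. Of the Per1,2-/- libraries 31 of 46 were above every WT library. The level was higher in Per1,2-/- than in WT (log2 0.84 ± 0.046, adjusted p = 9.23e-34) and above it at all 12 time points, from 0.16 at CT16 to 1.28 at CT24. In Bmal1-/- it was higher by 0.41 ± 0.046 (adjusted p = 3.52e-14), at 11 of 12 time points.

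Pdha1, its partner in the same enzyme, had a median of 39.0 CPM in WT, 41.5 in Per1,2-/- and 30.7 in Bmal1-/-. The Bmal1-/- level was lower than in WT by edgeR (log2 -0.39 ± 0.060, adjusted p = 7.85e-09), and that of Per1,2-/- was not called different (0.05 ± 0.059, adjusted p = 0.458). The lowest Bmal1-/- library, CT16 letter C, had 8.22 CPM, and without it the difference was -0.35 (adjusted p = 8.47e-09). Dlat had medians of 4.06, 3.15 and 3.44 CPM and was lower in Per1,2-/- (-0.32 ± 0.096, adjusted p = 0.00229). In Bmal1-/- its difference of -0.22 ± 0.095 (adjusted p = 0.0304) was not past the threshold without the libraries that stood apart (0.0976) or without letters B, C or D (0.0848 to 0.169).

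In the first steps of the cycle Cs and Idh3a were high in Bmal1-/-. Cs ranged from 54.3 to 139 CPM in WT and from 68.0 to 134 in Per1,2-/-. Their medians of 96.9 and 99.0 CPM were close, and the second range lies within the first. In Bmal1-/- it had 111 to 186 CPM (median 146), and 31 of 46 libraries were above every WT library. The log2 difference to WT was 0.63 ± 0.037 in Bmal1-/- (adjusted p = 4.76e-31) and 0.07 ± 0.038 in Per1,2-/- (0.0734). Idh3a had 15.8 to 54.4 CPM in WT, 34.6 to 58.6 in Per1,2-/- and 41.1 to 99.99 in Bmal1-/-. Its medians of 36.7, 46.9 and 63.2 CPM rank in that order. It was higher than in WT by 0.34 ± 0.050 in Per1,2-/- (adjusted p = 2.27e-09) and by 0.80 ± 0.049 in Bmal1-/- (6.35e-30). Both genes were higher in Bmal1-/- than in WT at all 12 time points.

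Of the later steps Fh1 and Mdh2 were higher in both knockouts. Fh1 had a median of 208 CPM in WT, 305 in Per1,2-/- and 362 in Bmal1-/-, with differences to WT of 0.45 ± 0.056 (adjusted p = 7.92e-12) and 0.78 ± 0.056 (5.65e-25). One Bmal1-/- library, CT32 letter C, reached 888 CPM, and it is among those that stood apart. Without these the Bmal1-/- difference was 0.74 (adjusted p = 4.70e-23). Mdh2 had medians of 233, 302 and 266 CPM and was higher by 0.32 ± 0.033 in Per1,2-/- (adjusted p = 1.59e-15) and by 0.16 ± 0.033 in Bmal1-/- (4.63e-06). The Mdh2 difference of Per1,2-/- was largest at CT8 (0.77) and lowest at CT16 (-0.15). Letters B and C of Per1,2-/- at CT8 are among the libraries that stood apart.

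Ogdh and Sucla2 were lower in both knockouts. Ogdh had medians of 3.52, 2.61 and 2.70 CPM, at 2 to 28 counts per library, and its differences to WT were -0.52 ± 0.113 in Per1,2-/- (adjusted p = 2.47e-05) and -0.47 ± 0.112 in Bmal1-/- (0.000111). It was below WT at 11 and at all 12 time points. Sucla2 differed little, by -0.11 ± 0.048 (adjusted p = 0.0334) and -0.14 ± 0.048 (0.00616), with medians of 83.3, 78.7 and 75.3 CPM. Leaving out the libraries of letter C ended both Sucla2 calls (0.190 and 0.428), and leaving out letter D that of Per1,2-/- (0.164). On this scale of 3′ tags the order of the medians in WT was Mdh2, Fh1, Cs, Sucla2, Pdhb, Pdha1, Idh3a, Dlat and Ogdh, of which neighbouring genes overlapped in range except Idh3a and Dlat.

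Set against each other, the knockouts differed in 6 of the 9 genes. Per1,2-/- was higher for Pdha1 (0.44 ± 0.060, adjusted p = 1.97e-10), Pdhb (0.43 ± 0.045, 1.89e-15) and Mdh2 (0.15 ± 0.033, 1.98e-05), or 3 genes against a background of 39.2%. It was lower for Cs (-0.56 ± 0.038, adjusted p = 1.06e-26), Idh3a (-0.46 ± 0.049, 3.10e-15) and Fh1 (-0.33 ± 0.057, 1.21e-07), against 36.1%. The differences of Dlat, Ogdh and Sucla2 were -0.10 ± 0.097, -0.06 ± 0.117 and 0.03 ± 0.049.

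The remaining enzymes of the pathway, its regulators and its cytosolic counterparts were read from a list of 33 further genes, of which 29 were counted in every library. In WT 16 of the 29 had a 24-hour rhythm, where 48.6% of all genes did. Pdk4, a kinase that inactivates pyruvate dehydrogenase, had an amplitude of 94.5 ± 13.6% of its mean with a peak at CT23.7 (q = 8.33e-07), and the kinase Pdk2 had a fold of 1.33 (q = 0.000166). Pck1, which draws oxaloacetate into gluconeogenesis, had a fold of 4.66 with a peak at CT10.3 (q = 2.33e-05). The 24-hour terms of Pdk4 differed from WT in both knockouts (adjusted p = 2.71e-10 in Per1,2-/- and 7.35e-11 in Bmal1-/-), among 10 and 6 of the 29 genes (28.2% and 21.6% of all genes). At 16 hours in Per1,2-/- 3 of the 29 were called (4.73% of all genes), Got2 (q = 0.0437), Sdhb (q = 0.161) and Mdh1 (q = 0.198), with peaks at 8.55, 8.48 and 8.83 hours. At the other 5 rhythms tested 0 of the 29 were called.

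In levels 23 of the 29 genes differed between Per1,2-/- and WT, 9 higher and 14 lower (36.8% and 33.9% of all genes), and 27 between Bmal1-/- and WT, 13 higher and 14 lower (37.5% and 39.2%). Mpc1, a subunit of the carrier that brings pyruvate into mitochondria, was lower in both (log2 -0.97 ± 0.059 and -1.06 ± 0.059, adjusted p = 9.77e-30 and 5.52e-33). Pdp2, a phosphatase that reactivates pyruvate dehydrogenase, was lower in Per1,2-/- than in WT (log2 -1.68 ± 0.089, adjusted p = 1.86e-34) and than in Bmal1-/- (-1.93 ± 0.087, 5.49e-41). Glud1 and Got1, which pass amino acid carbon and nitrogen into and out of the cycle, were higher in Bmal1-/- than in WT by 0.72 ± 0.028 and 1.31 ± 0.091 (adjusted p = 3.08e-46 and 4.02e-26). Of the slopes in Per1,2-/- 17 of the 29 rose and 1 fell, with a median of 0.32, where 1102 of 8473 genes (13%) rose and 952 fell. The largest signals were Dlst (0.63 ± 0.071, adjusted p = 1.77e-11), the partner of Ogdh, and Mdh1 (0.74 ± 0.086, 2.86e-11), the cytosolic malate dehydrogenase.

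Apart from time of day, some of the genes varied together between libraries. As log2 deviations from the mean of their own time point, Pdha1, Pdhb and Sucla2 correlated with each other at r = 0.51 to 0.67 in WT (n = 48), 0.41 to 0.71 in Per1,2-/- (n = 46) and 0.54 to 0.75 in Bmal1-/- (n = 46). The other 33 pairs had medians of 0.078, 0.085 and -0.066. They ran from -0.552 to 0.389 in WT, from -0.309 to 0.408 in Per1,2-/- and from -0.531 to 0.418 in Bmal1-/-. In Bmal1-/- CT16 letter C was the lowest library for Pdha1 (8.22 CPM) and Sucla2 (36.1 CPM). There CT44 letter D was the highest for Pdhb (152 CPM) and Sucla2 (151 CPM). Both are among the libraries that stood apart, and the correlations were not computed without these. The 3 genes were singled out after their values were seen, and no test is given. Their correlation with the library total was 0.055 to 0.321 in WT, -0.228 to 0.0034 in Per1,2-/- and 0.113 to 0.425 in Bmal1-/-, and its part in the pattern was not tested.

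**Figure D5:**
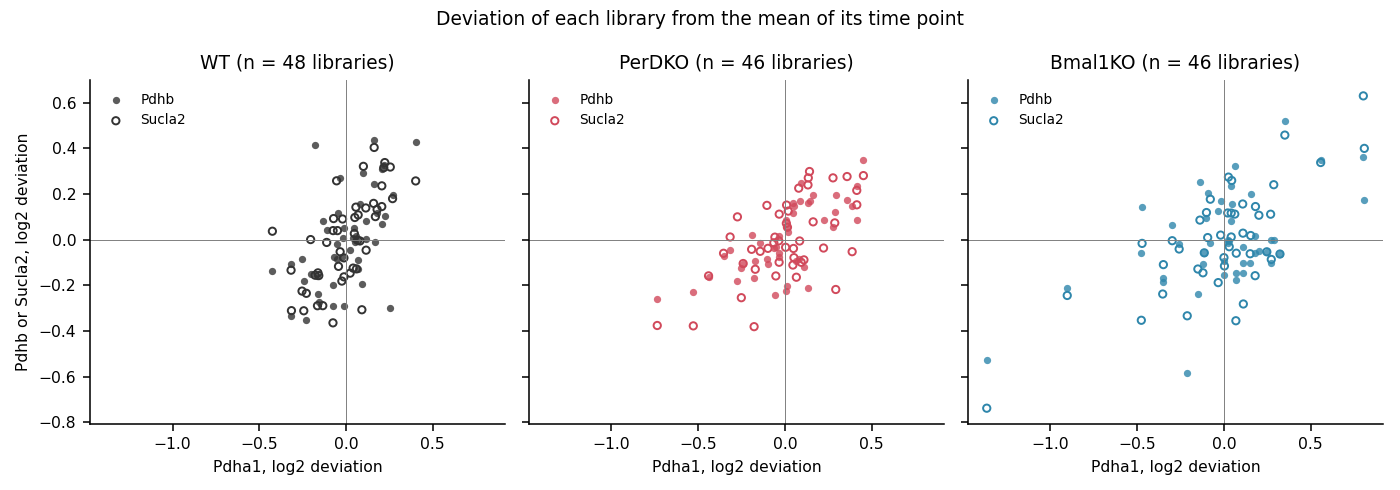
Deviation of each library from the mean of its genotype and time point, as log2(normalized count + 1), for Pdha1 (horizontal) against Pdhb (filled) and Sucla2 (open). Each panel is a genotype with 48, 46 and 46 libraries. Points run from lower left to upper right in all 3 panels, and the lowest point of Bmal1KO is CT16 letter C.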

How the data were processed

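Whole liver RNA of 140 samples was read by MARS-seq. The authors' pipeline trimmed reads with cutadapt, aligned them with STAR to mm10 and made counts of unique molecular barcodes per RefSeq gene with HTSeq. Raw counts were deposited for each genotype in a table of its own. Normalized counts, a signal that the authors made by dividing counts by DESeq2 median-of-ratios size factors, were deposited for WT and Per1,2-/-, and for Bmal1-/- they were computed here by the same formula.

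Groups and library letters came from the sample labels. Rhythms were tested with JTK_CYCLE on normalized counts, 1 period at a time (24, 16 and 12 hours) and called at q under 0.2, as in the study. The test was run here with its exact null distribution, Bonferroni correction over phases and Benjamini-Hochberg adjustment over genes. A gene was tested if no library of WT or Per1,2-/- lacked it (9258 genes), or for Bmal1-/- no library of WT or Bmal1-/- (8586 genes). Amplitudes, folds and peaks came from harmonic regression. Levels, differences in rhythm, changes over time points and slopes were tested on raw counts with edgeR 4.0.16 over 8473 genes and all 140 libraries. The settings were TMM, the quasi-likelihood F-test and an adjusted p under 0.05. CPM of the followed genes use the same TMM scale, while those of marker and clock genes use the library total alone. R 4.3.3, DESeq2 1.42.0, Python 3.11.15, SciPy 1.17.1 and pandas 2.3.3 were used, and the fits were tested on simulated data.

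The members and lists were chosen with earlier results of these data known. Named genes are the 9 members in every comparison, up to 4 called genes of the pathway list with the smallest p, the clock check genes and the 3 genes most correlated with a member. Some genes that this rule names are not reported here. Alternatives were another threshold, filter, normalization and test, the letter as a replicate block, means per time point, removal of a linear trend and leaving out each letter. Tied reference times, leaving out each time point, leaving out the libraries that stood apart (median correlation over 3.5 median absolute deviations below that of the genotype) and leaving out Bmal1-/- CT16 letter C were chosen after seeing the data.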

Additional observations from a re-analysis of the deposited data

Results flagged for a closer look

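Among 288 groups of 4 libraries (9 genes at the time points with 4 libraries), 13 held a library far from the other 3 by Dixon's criterion, or 4.51%, where chance gives about 1 in 20. Cs had 5 of the 13. In WT its normalized count was 234 in letter A at CT12 (others 275 to 284), 298 in letter B at CT16 (259 to 263), 305 in letter C at CT28 (388 to 401) and 200.0 in letter D at CT32 (312 to 316), a different letter each time. In Bmal1-/- it was 513 in letter B at CT40 (446 to 450).

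In Bmal1-/- Pdha1 was low in letter C at CT28 (83.3, others 125 to 132), Pdhb high in letter C at CT4 (241, others 206 to 211), Dlat high in letter D at CT0 (18.9, others 10.6 to 11.7) and Ogdh low in letter D at CT44 (6.79, others 10.3 to 10.9). In Per1,2-/- Dlat was low in letter A at CT28 (4.12, others 13.1 to 14.9), Sucla2 high in letter B at CT12 (302, others 238 to 248) and in letter D at CT40 (318, others 281 to 284), and Mdh2 low in letter C at CT24 (968, others 1110 to 1130).

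The 24-hour rhythm differed from WT by edgeR in the same 5 genes in each knockout, both sets against the same WT libraries. In Per1,2-/- the adjusted p was 0.0207 for Pdhb, 0.0139 for Cs, 0.00276 for Idh3a, 0.0290 for Fh1 and 8.39e-06 for Mdh2. In Bmal1-/- it was 0.0456 for Pdhb, 0.00604 for Cs, 0.000161 for Idh3a, 0.000245 for Fh1 and 0.000824 for Mdh2.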

How the results depend on the processing

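No called level difference or slope changed sign under any alternative run. For rhythms, differences in rhythm and changes over time points no direction was recorded, so a reversal there could not be seen. The 3 calls at 16 hours in Per1,2-/- became 5 by edgeR and 5 by DESeq2, 1 at q under 0.05, 1 with a linear trend removed, 0 on means per time point, 0 with tied reference times, 0 to 1 when a letter was left out and 1 to 5 when a time point was left out. The 0 calls at 12 hours in Bmal1-/- became 1 by DESeq2 and 0 to 1 when a time point was left out. Of the level calls, 1 of 7 (Per1,2-/- against WT), 4 of 9 (Bmal1-/- against WT) and 3 of 6 (Per1,2-/- against Bmal1-/-) had 1 sign at all 12 time points. The 5 differences in 24-hour rhythm became 2 at an adjusted p under 0.01 in Per1,2-/- and 2 to 4 with a letter left out, and 3 to 5 with a letter left out in Bmal1-/-. The 2 changes over time points in Per1,2-/- became 1 at an adjusted p under 0.01, 1 to 2 with a letter left out and 4 without the libraries that stood apart, and the 2 in Bmal1-/- became 1, 0 to 2 and 1. The 3 slopes in Per1,2-/- became 1 at an adjusted p under 0.01. The cause of these changes was not tested.

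With the genotypes pooled, the median correlation of deviations was 0.0042 for libraries of the same letter and -0.0011 for others. The highest was 0.616 for the same letter and 0.458 for others. Pairing by letter within a genotype was not tested, so these values cannot exclude it. With the letter as a replicate block, edgeR called 8 of the 9 genes at 24 hours in WT and 3 at 16 hours in Per1,2-/- (8 and 5 without it), 0 in the other rhythms, 7, 9 and 6 in levels, 5, 5 and 0 in differences in rhythm, 5, 2 and 2 in changes over time points and 0, 3 and 0 in slopes. Of all 9258 genes edgeR called 5538 at 24 hours in WT with the block and 5513 without it, more than JTK_CYCLE did.

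Over all genes, the 438 calls at 16 hours in Per1,2-/- became 702 by DESeq2, 67 at q under 0.05, 108 with the trend removed, 0 on means per time point or with tied times, 782 without the libraries that stood apart and 29 to 177 without a letter. The 8 at 24 hours in Per1,2-/- became 178 by edgeR and 335 by DESeq2, the 12 at 12 hours in Bmal1-/- 39 and 228, and the 4497 at 24 hours in WT 2699 on means per time point. The 12 differences in 16-hour rhythm became 69 by DESeq2, and the 112 changes over time points in Bmal1-/- 295. Depth limits Dlat and Ogdh most, whose variation within WT time points (median CV 25.2% and 27.9%) was no larger than counting error (28.3% and 31.6%).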
